A study of Mus musculus with 4 samples.

Results

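The DNAJ proteins, also called HSP40 proteins or J proteins, are the co-chaperones of HSP70, and their genes were examined here by the cell compartment in which the proteins work. The members were all non-control probes whose gene name on the array begins with DNAJA, DNAJB or DNAJC and ends in a number: 46 of 41000 probes, for 27 genes. Of these, 43 probes and 26 genes passed the filter on dim signal and were tested among 28600 features. DNAJB7 was well above background in the farnesol channel of 1 array and in the vehicle channel of 0 arrays and was not tested. 1 probe of DNAJC3 and 1 of DNAJC6 were well above background on 0 arrays, and other probes stood for these genes.

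The cells were H460, a human line established from a lung carcinoma, and had received 250 µM farnesol for 4 h, or the vehicle dimethyl sulphoxide (DMSO). Farnesol is an isoprenoid alcohol related to an intermediate of the mevalonate pathway. There were 2 experiments, called replicate 1 and replicate 2, in which the farnesol RNA was hybridised against the vehicle RNA of the same experiment on 2 arrays with exchanged dyes, which makes 4 arrays. The organism is labelled as mouse, but both the protocols and the gene names on the array are human. The labels do not say how separate the cultures were, so p-values measure only the spread between these 2 experiments, and all values come from 1 cell line at 1 dose and 1 time.

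All 6 epithelial markers on the array, among them the keratins KRT8, KRT18 and KRT19, were well above background in both channels of every array. Their median ratio was -0.28, and 5 of 6 were lower with farnesol in both replicates (KRT19 at -0.65), beside 30.1% of all features. After adjustment 0 passed limma. At an unadjusted p under 0.05 in limma, 0 were higher and 2 lower, beside 3.71% and 10.8% of all features. The leukocyte marker CD3D and the fibroblast markers PDGFRB and POSTN were too dim to be tested. Of the other markers, 3 leukocyte, 2 fibroblast and 3 endothelial genes were tested, 0 passed limma after adjustment, and their ratios lay between 0.015 and 0.31. CD14, a monocyte marker, was well above background on 4 arrays in both channels. In each channel 82.7% to 93.0% of probe spots exceeded background clearly and 19 to 51 spots were saturated, with no DNAJ spot among them. Across features, which are not independent, the dye-swapped arrays of replicate 1 correlated at r = 0.943 and those of replicate 2 at 0.942, while arrays from different replicates correlated at 0.634 to 0.684.

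A DNAJ protein carries a J domain, which stimulates the ATPase of an HSP70 partner so that HSP70 closes on its client. Class A and class B proteins also bind unfolded clients themselves, whereas class C proteins share little beyond the J domain and usually direct HSP70 to one place or task. Heat shock factor 1 drives several cytosolic members, of which DNAJB1 is the best known, and the unfolded protein response drives DNAJB9, DNAJC3, DNAJB11 and DNAJC10 in the endoplasmic reticulum (ER). The compartments used below are textbook knowledge of the human proteins and were not measured here. The mitochondrial place of DNAJC4 is less settled than the others.

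No DNAJ gene passed limma's moderated test after Benjamini-Hochberg adjustment over all features (0 of 26, lowest adjusted p = 0.176), where 0.0105% of all features passed at the threshold of 0.05. Before adjustment, 5 DNAJ genes were higher with farnesol at p under 0.05 (19.2%), against 3.71% of all features, and 5 were lower (19.2%), against 10.8%. By size, DNAJB1, DNAJB4, DNAJB9 and DNAJB12 (4 genes, 15.4%) exceeded 1.5-fold upwards in both replicates with every array in that direction, against 1.26% of all features. DNAJC5 alone exceeded 1.5-fold downwards by the same measure (3.85%), against 1.43%. DNAJB9 in replicate 2 (1.502-fold) and DNAJB12 in both replicates (1.53- and 1.52-fold) lay close to that cutoff. The mean log2 ratio of DNAJB12 was 0.61, but 0.54 with median centring and 0.39 with means of probes. The 1.5-fold counts were not repeated under other settings. DNAJB1 alone was at least 2-fold higher (3.85%, against 0.657%), and no DNAJ gene was 2-fold lower in both replicates, where 0.238% of features were. RNA was taken from whole cultures, so fewer cells with a message and less of it per cell cannot be told apart.

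Over the whole family, the median log2 ratio of farnesol over vehicle was 0.039, beside 0.014 for all features, and with median centring in place of loess it was -0.082, beside -0.012. Of the 26 genes, 11 were higher in both replicates (42.3%, against 35.4% of all features) and 9 were lower in both (34.6%, against 30.1%). The compartments differed in their medians, with 0.44 for the 9 cytosolic class A and B genes, 0.059 for the 7 ER genes, -0.019 for the 3 genes of vesicles and endosomes, -0.15 for the 3 mitochondrial genes and -0.21 for the 4 class C genes of cytosol and nucleus. By class, the median was 0.25 over 4 class A genes, 0.44 over 9 class B genes and -0.15 over 13 class C genes. Of the class B genes, 7 were higher and 0 lower in both replicates, and of the class C genes, 2 were higher and 7 lower. These medians and counts are descriptions with no test between compartments or classes, and with median centring the ER median turned to -0.13 and the cytosolic class A and B median was 0.22, which was 0.26 with means of probes.

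**Figure D1:**
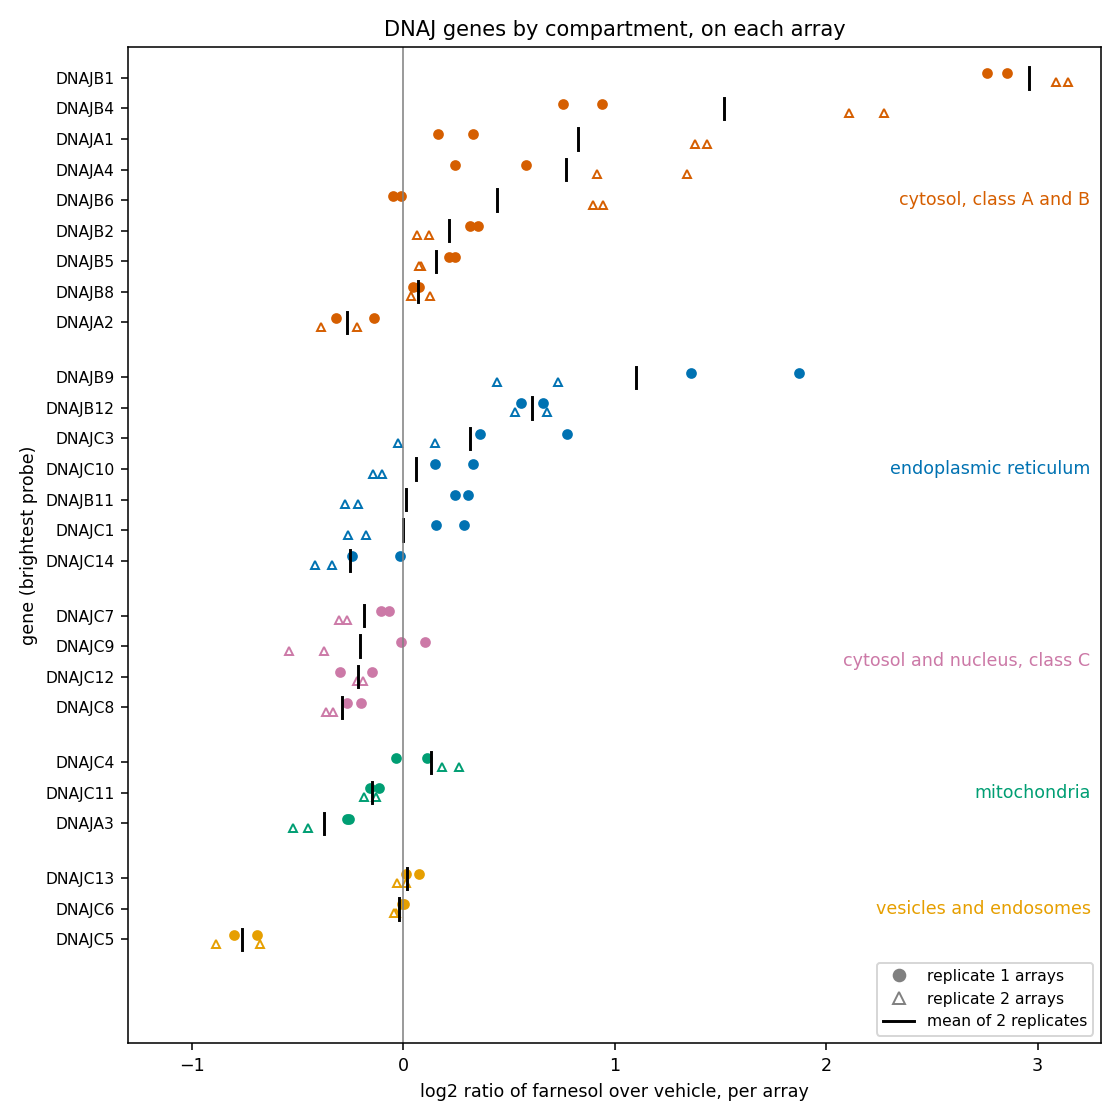
Log2 ratio of farnesol over vehicle for each tested DNAJ gene on each of the 4 arrays, grouped by compartment. Filled circles are the arrays of replicate 1, open triangles those of replicate 2 and black bars the mean of the 2 replicates. DNAJB1 lies near 3 on every array, and DNAJC5 lies below -0.6 on every array.

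Among the cytosolic class A and B genes, DNAJB1 had the highest ratio of the family, at 2.96 ± 0.22 on the log2 scale (SD, n = 2), which is 7.79-fold. DNAJB1 is the main heat-inducible partner of cytosolic HSP70. Its normalized log2 intensity was 11.59 and 12.80 in the farnesol RNA of replicates 1 and 2, against 8.79 and 9.68 in the vehicle RNA. The lowest farnesol value lay above the highest vehicle value, although the vehicle RNAs differed from each other as well. The arrays gave ratios of 2.86 and 2.76 in replicate 1 and 3.14 and 3.09 in replicate 2, which placed the gene 45th from the top among the 28600 features. limma's adjusted p was 0.176, and over 8 other settings of processing or model it lay between 0.000124 and 0.233. The lowest of these came from the model that treats dye-swapped arrays as further samples. The next lowest limma adjusted p was 0.0152, with a background offset of 0.

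DNAJB4, another cytosolic HSP70 partner known to respond to heat, was next with 1.52 ± 0.95, or 2.87-fold (limma adjusted p = 0.307). In farnesol RNA its log2 intensity was 8.41 and 9.92, against 7.56 and 7.73 in vehicle RNA. The groups did not overlap, but the ratio was much larger in replicate 2. The arrays of replicate 1 gave 0.94 and 0.76, and those of replicate 2 gave 2.27 and 2.11. A second DNAJB4 probe had 1.35 ± 0.95 with the same imbalance.

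DNAJA1, an abundant class A partner of HSC70 that is farnesylated in the cell, had 0.83 ± 0.82 (limma adjusted p = 0.464). The farnesol RNAs had log2 intensities of 12.23 and 13.31, against 11.99 and 11.90 in the vehicle RNAs. The vehicle RNAs lay close together, and the farnesol RNA of replicate 2 stood apart from all the others. The arrays gave 0.16 and 0.33 in replicate 1 and 1.38 and 1.44 in replicate 2. The other 2 probes of the gene had 0.85 and 0.89.

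DNAJA4, a class A member, had 0.41 in replicate 1 and 1.13 in replicate 2 (0.77 ± 0.51, limma adjusted p = 0.325), and was higher with farnesol on 4 of 4 arrays. DNAJB6, which holds back the aggregation of polyglutamine proteins, had -0.031 in replicate 1 and 0.92 in replicate 2 (0.44 ± 0.67, and 0.22 with median centring). In replicate 1 this brightest DNAJB6 probe was near 0, with arrays at -0.012 and -0.049, and the gene's other probes had -0.061, -0.20 and -0.63. All its probes were above 0 in replicate 2. The remaining cytosolic members had small ratios. DNAJB2, which passes clients to the proteasome, averaged 0.21 ± 0.17 on its brightest probe and -0.014 ± 0.094 on the other. DNAJB5 averaged 0.16 ± 0.10, and DNAJB8, a suppressor of aggregation best known from testis, 0.072 ± 0.015. By their brightest probes, all 3 were higher on 4 of 4 arrays. The dim DNAJB8 probe had 0.21 with a background offset of 0. DNAJA2, the class A partner of HSC70 closest in role to DNAJA1, was lower on 4 of 4 arrays, with -0.27 ± 0.053 (limma adjusted p = 0.265).

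**Figure D2:**
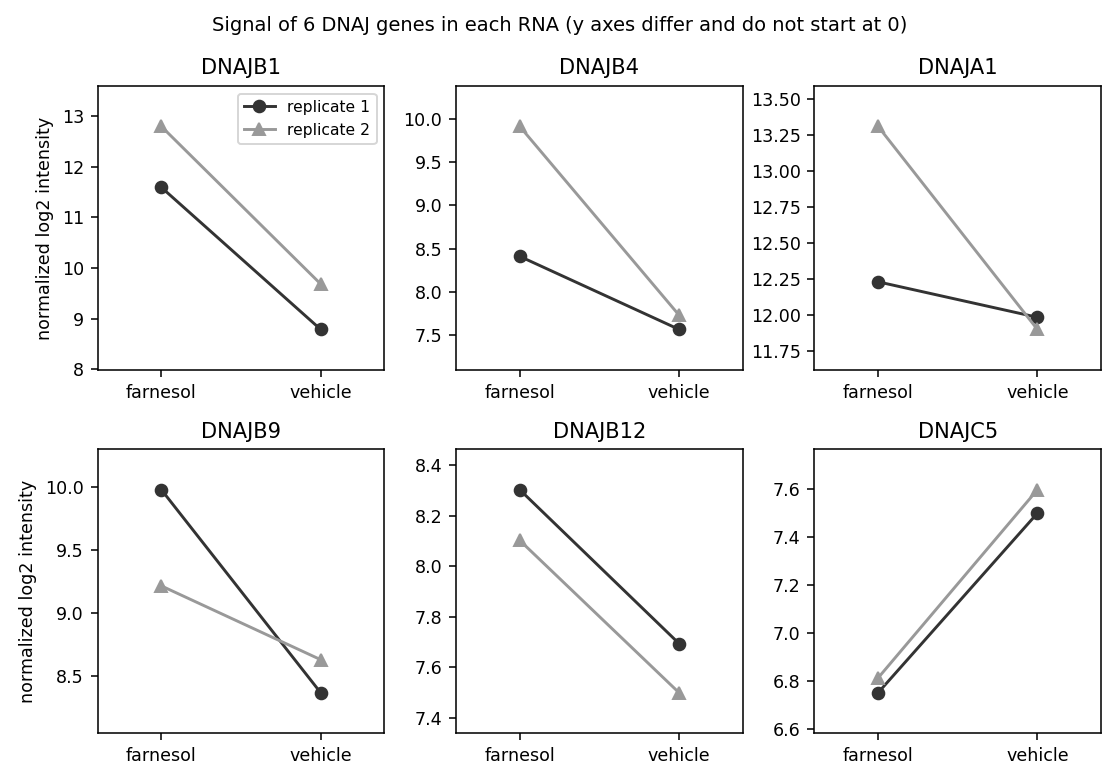
Normalized log2 intensity of 6 DNAJ genes in the farnesol RNA (left) and the vehicle RNA (right) of each replicate, each point the mean over 2 dye-swapped arrays and each line joining the RNAs of 1 experiment. The farnesol points lie above the vehicle points of the same experiment in all panels but that of DNAJC5, and the y axes differ between panels.

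In the ER, DNAJB9 had the highest ratio, at 1.10 ± 0.73, or 2.15-fold (limma adjusted p = 0.321). DNAJB9, or ERdj4, binds the luminal HSP70 HSPA5 and takes part in degradation of misfolded ER proteins. Log2 intensities were 9.98 and 9.22 in farnesol RNA, against 8.37 and 8.63 in vehicle RNA. The groups did not overlap, and here replicate 1 gave the larger ratio. The arrays gave 1.87 and 1.36 in replicate 1 and 0.73 and 0.44 in replicate 2, so that the replicates stood at 1.62 and 0.59. Only 1 probe measured this gene.

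DNAJB12, a J protein anchored in the ER membrane with its J domain towards the cytosol, was nearly the same in both experiments. The gene had log2 intensities of 8.30 and 8.10 in farnesol RNA, against 7.69 and 7.50 in vehicle RNA. The arrays gave 0.66 and 0.56 in replicate 1 and 0.68 and 0.53 in replicate 2, a mean of 0.61 (1.52-fold, limma adjusted p = 0.192) with replicate means of 0.610 and 0.604. The gene's other 2 probes had smaller ratios, 0.38 and 0.18, and the mean over its probes was 0.39. They were also dimmer, with mean log2 intensities of 7.07 and 6.46 against 7.91, and the background offset shrinks dim ratios. The part of the offset in this gap between probes was not tested.

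The remaining ER members known from the unfolded protein response had small or mixed ratios. DNAJC3, or p58IPK, an HSPA5 co-chaperone also known as an inhibitor of PERK, had 0.57 in replicate 1 and 0.062 in replicate 2 (0.32 ± 0.36, limma adjusted p = 0.506). Its log2 intensity was 8.69 and 8.12 in farnesol RNA, against 8.12 and 8.06 in vehicle RNA, and a second tested probe had -0.039, so that the mean over probes was 0.14. Only the farnesol RNA of replicate 1 stood apart for this gene. DNAJB11, or ERdj3, which delivers nascent clients to HSPA5, had 0.28 in replicate 1 and -0.24 in replicate 2. Its signal on the log2 scale was 10.52 and 10.07 in farnesol RNA, against 10.24 and 10.32 in vehicle RNA, so that the groups overlapped. DNAJC10, or ERdj5, a disulfide reductase with a J domain, had 0.24 in replicate 1 and -0.12 in replicate 2. For DNAJC10 the signal was 9.84 and 9.46 in farnesol RNA, against 9.60 and 9.58 in vehicle RNA, again with overlap. A second DNAJC10 probe averaged -0.32 ± 0.43. The last 2 ER members are not among the well-known targets of the unfolded protein response. DNAJC1, a J protein of the ER membrane, had 0.22 and -0.22 in the replicates. DNAJC14, which helps export a dopamine receptor from the ER, was lower on 4 of 4 arrays (-0.25 ± 0.18), while its second probe had 0.055.

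DNAJC5 was the lowest of the family. It encodes cysteine string protein, a palmitoylated co-chaperone on secretory and synaptic vesicles. Its log2 intensity was 6.75 and 6.81 in farnesol RNA, against 7.50 and 7.60 in vehicle RNA. Each pair lay close together and the pairs did not overlap. The arrays gave -0.69 and -0.80 in replicate 1 and -0.89 and -0.68 in replicate 2, a mean of -0.76 ± 0.025, or 1.70-fold lower (limma adjusted p = 0.192). For this dim probe the ratio was -1.20 with a background offset of 0 and -1.32 with the scanner software's processed signals. The other vesicle members had ratios near 0: DNAJC13, which acts with HSC70 on endosomes, averaged 0.018 ± 0.040. DNAJC6, or auxilin, which strips clathrin coats, averaged -0.019 ± 0.025. The DNAJC6 probe was dim (mean log2 intensity 6.14), well above background in the farnesol channel of 2 arrays and the vehicle channel of 3. Its ratio was -0.061 with a background offset of 0, -0.12 with processed signals and 0.081 with median centring. The background offset shrinks dim ratios, so this value near 0 cannot show that DNAJC6 was unchanged. The same value is the median of the vesicle genes.

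The 3 mitochondrial genes had ratios from -0.37 to 0.13. DNAJA3, or TID1, the class A partner of mitochondrial HSP70, was lower on 4 of 4 arrays (-0.26 in replicate 1, -0.48 in replicate 2, limma adjusted p = 0.273). Its mean of -0.37 was -0.60 with median centring. DNAJC11, a protein of the mitochondrial cristae complex, averaged -0.15 ± 0.016, and DNAJC4 averaged 0.13 ± 0.13. The 4 class C genes of cytosol and nucleus lay together between -0.29 and -0.18. DNAJC8, which acts in splicing, had -0.29 ± 0.081 on its brightest probe and -0.0045 on another, and with median centring its brightest probe had -0.48. DNAJC12, linked to folding of aromatic amino acid hydroxylases, had -0.21 ± 0.014. DNAJC7, which binds HSP70 and HSP90 through tetratricopeptide repeats, had -0.18 ± 0.14. DNAJC9, a histone chaperone, had 0.047 in replicate 1 and -0.46 in replicate 2.

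The experiments differed in which members had the larger ratio. All 7 ER genes had the higher ratio in replicate 1, with differences (replicate 2 minus replicate 1) from -1.03 for DNAJB9 to -0.0059 for DNAJB12 and a median of -0.44. In replicate 1 the median ratio of the ER genes was 0.28, and in replicate 2 it was -0.12. Of the 9 cytosolic class A and B genes, 6 had the higher ratio in replicate 2, with a median difference of 0.31, and their median ratio was 0.25 in replicate 1 and 0.92 in replicate 2. DNAJB4 differed by 1.34, DNAJA1 by 1.16, DNAJB6 by 0.95, DNAJA4 by 0.72 and DNAJB1 by 0.31. The other compartments also leaned to replicate 1, with 3 of 3 vesicle genes, 3 of 4 class C genes of cytosol and nucleus and 2 of 3 mitochondrial genes, which made 18 of 26 in the family. Among all features, 48.8% were higher in replicate 1. The difference between replicates exceeded the difference between dye-swapped arrays within each replicate for 19 of 26 DNAJ genes (73.1%), against 52.6% of all features. It was above 0.5 for 8 of 26 (30.8%), against 8.87% of all features. Those 8 genes had mean log2 intensities from 8.26 (DNAJC3) to 12.4 (DNAJA1), against a median of 7.48 for all features. The background offset shrinks dim ratios, and no comparison at equal brightness was made. The same limit holds for the shares by fold change given above. Across the 26 genes the replicate means correlated at r = 0.80 (Spearman's rho 0.75), a description over genes that share the same arrays. This contrast between compartments has no test, since each experiment gives 1 value per gene.

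**Figure D3:**
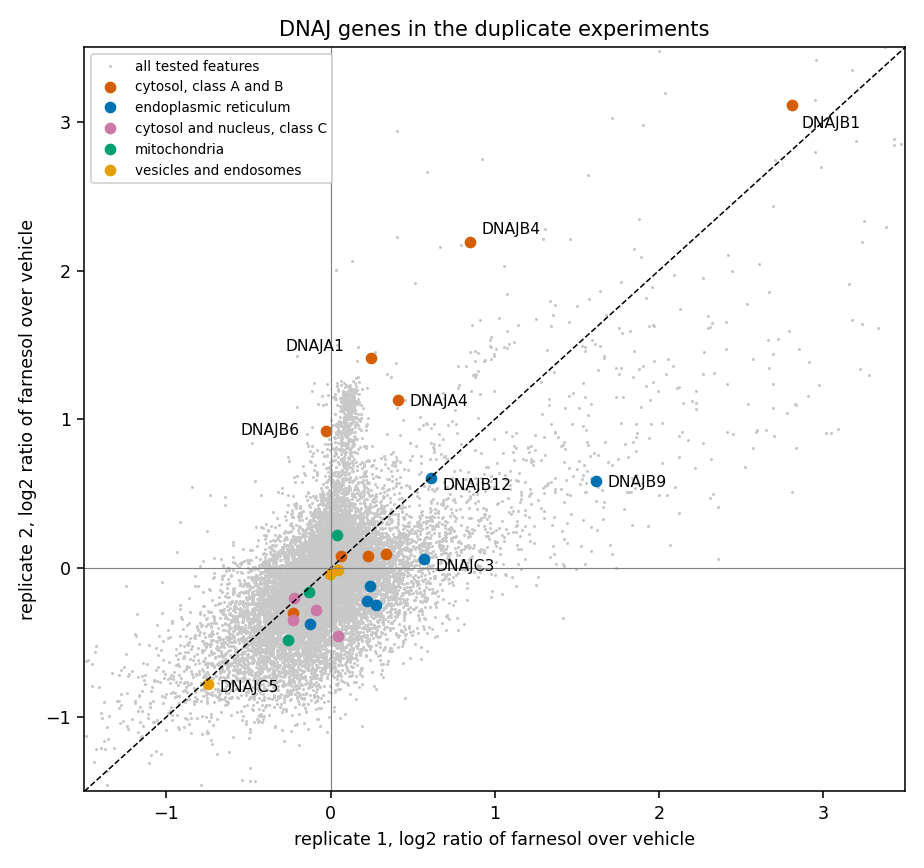
Log2 ratio of farnesol over vehicle in replicate 1 (x axis) and replicate 2 (y axis) for the tested DNAJ genes, coloured by compartment, over all tested features in grey. The dashed line marks equal ratios, and features with larger ratios lie outside the axes. The ER genes lie on or below the line, and DNAJB4, DNAJA1, DNAJA4 and DNAJB6 lie above it.

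The HSP70 genes, whose proteins are the partners of DNAJ proteins, were measured on the same arrays. Of 14 tested HSP70 and HSP110 genes, 8 were higher and 4 lower in both replicates, where 35.4% and 30.1% of all features were. After adjustment 0 passed limma, and at an unadjusted p under 0.05, 3 were higher and 2 lower, beside 3.71% and 10.8% of all features. The inducible cytosolic HSPA1A had 0.13 in replicate 1 and 2.06 in replicate 2, and a probe of this gene was saturated in the farnesol channel of 1 array. HSPA6, an HSP70 strictly induced by stress, had 0.24 in replicate 1 and 4.36 in replicate 2, and HSPH1, an HSP110, had 0.79 and 2.17. Those 3 genes had the larger ratio in replicate 2, as DNAJB4 and DNAJA1 had. The ER HSP70 HSPA5, with 3.17 in replicate 1 and 1.66 in replicate 2, had the larger ratio in replicate 1, as DNAJB9 had. The whole list divided evenly, 7 genes with the larger ratio in each replicate, and the cytosolic HSPA4 (-0.22 and -0.43) and the ER HYOU1 (0.079 and 0.042) did not share the size of these contrasts. HSPA8, the constitutive HSC70, had 0.64 and 0.73. The mitochondrial HSPA9B had 0.54 and -0.13. HSPA14, the HSP70 of a ribosome-bound complex, was lower in both (-1.10 ± 0.093, limma adjusted p = 0.192). Its J partner in that complex appears on the array as ZRF1, with 0.61 in replicate 1 and -0.099 in replicate 2.

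Nucleotide exchange factors, which release ADP from HSP70 and complete the cycle that a J protein starts, gave 0 of 10 past limma's adjusted threshold (1 higher and 0 lower at an unadjusted p under 0.05, beside 3.71% and 10.8% of all features). In both replicates, 4 were higher and 3 lower, beside 35.4% and 30.1%, and 5 had the larger ratio in each replicate. BAG3, a heat-induced exchange factor, had 0.41 in replicate 1 and 2.23 in replicate 2. GRPEL2, a mitochondrial one, had 0.90 and 0.32. SIL1, the exchange factor of HSPA5, averaged -0.20. The messages of the heat shock factors were close to 0, with HSF1 at -0.14 ± 0.062, HSF2 at -0.25 ± 0.11 and HSF4 at 0.14 ± 0.077, and HSBP1, which binds heat shock factor, had -0.25 ± 0.092. Of these 4 genes 0 passed limma after adjustment, and at an unadjusted p under 0.05, 0 were higher and 2 (HSF2 and HSBP1) lower, beside 3.71% and 10.8% of all features.

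A set of bright features also had the higher ratio in replicate 2. Its ranges were chosen after the plot of the replicates was seen: 0 to 0.2 in replicate 1 and 0.8 to 1.3 in replicate 2. It held 385 features, or 1.35%, and the mirror-image ranges held 49. That 0 DNAJ genes lay inside depends on where the edges were put. DNAJB6 (-0.031 and 0.92) and DNAJA1 (0.25 and 1.41) lay just outside. The 385 features had a median log2 intensity of 12.1, against 7.48 for all features. Their median ratio in replicate 2 was 1.26 with farnesol in Cy5 and 0.85 with farnesol in Cy3. For DNAJA1, DNAJB6, DNAJB1 and DNAJB4 the same 2 arrays differed by -0.056, 0.046, 0.055 and 0.16 (Cy5 minus Cy3), against a median of 0.40 for that set, and for DNAJA4 by 0.42. Mean log2 intensities were 12.4 for DNAJA1, 10.6 for DNAJB6, 10.7 for DNAJB1, 8.79 for DNAJA4 and 8.39 for DNAJB4. The part of this set of features in the replicate 2 values of the DNAJ genes was not tested.

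Genes with several probes gave a check within the arrays. Of the 12 DNAJ genes with more than 1 tested probe, 7 had all their probes on 1 side of 0, and no gene had probes that differed by 1 or more on the log2 scale. The count of signs is a weak check. Second probes of DNAJB2 (-0.014), DNAJC3 (-0.039) and DNAJC14 (0.055) were dim, with mean log2 intensities of 6.50, 6.15 and 6.49. Among genes on 1 side of 0, second probes of DNAJC4 (0.020), DNAJC8 (-0.0045) and DNAJC11 (-0.030) also lay near 0. The widest gap, 0.69, was in DNAJA4, where probes for the same transcript had 0.77 and 0.71 and a probe for another transcript had 0.082. DNAJB6 has splice forms that differ in their C-terminal end, of which the long one is nuclear and the short one is mostly cytosolic. The 3 probes annotated to transcript variant 2 had 0.44, 0.43 and 0.25, whereas the probe annotated to variant 1 had -0.63 in replicate 1 and 0.48 in replicate 2 (-0.075 ± 0.79). The variant 1 ratio lay below that of the brightest variant 2 probe on 4 of 4 arrays, with differences of -0.58, -0.63, -0.39 and -0.48, and this difference between probes has no test here. The variant 1 probe was dimmer (mean log2 intensity 6.94, against 10.6), and the background offset shrinks dim ratios towards 0. In replicate 2, where both probes lay above 0, the part of the offset in the difference was not tested.

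**Figure D4:**
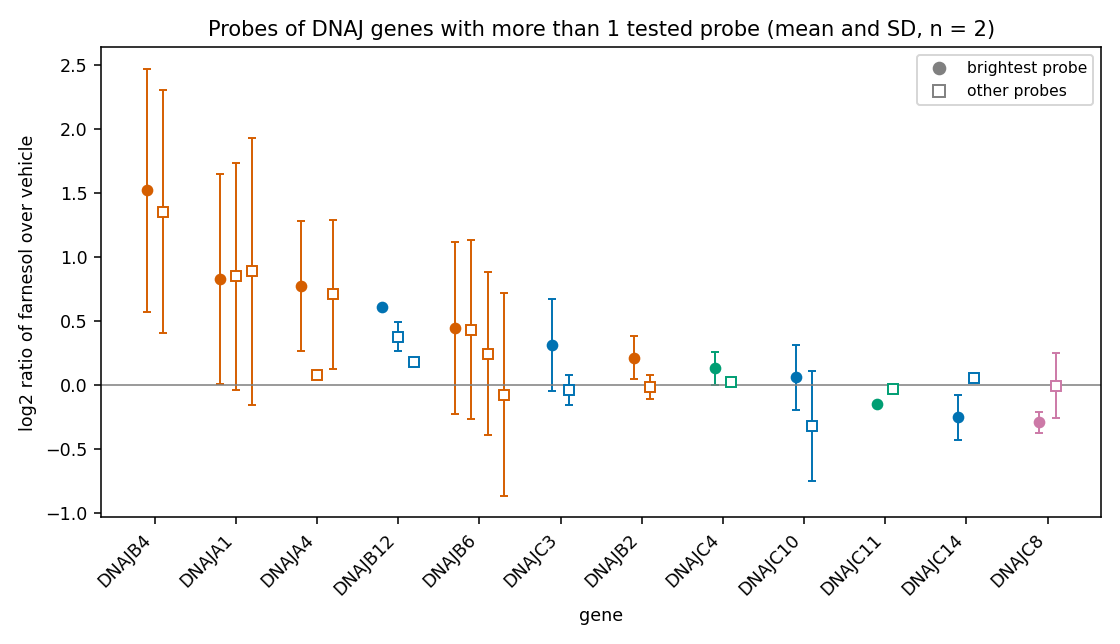
Log2 ratio of farnesol over vehicle for every tested probe of the 12 DNAJ genes with more than 1 tested probe, as mean and SD over 2 replicates. Filled circles are the brightest probe and open squares the others, in orange for cytosolic class A and B, blue for ER, green for mitochondria and pink for class C of cytosol and nucleus. The 3 probes of DNAJA1 lie close together, and those of DNAJA4 and DNAJB6 spread.

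J proteins under other names were looked up from a separate list. Of 15 names, 9 were on the array and tested, 0 passed limma after adjustment (0 higher and 2 lower at an unadjusted p under 0.05, beside 3.71% and 10.8% of all features), and the median ratio was -0.088. SEC63, the J protein of the ER translocon, was lower in both replicates with -0.77 ± 0.041 (limma adjusted p = 0.192). GAK, the widely expressed relative of auxilin, was lower with -0.49 ± 0.052 (limma adjusted p = 0.194). J protein genes of the ER lay on both sides of 0, with DNAJB9 and DNAJB12 above and SEC63 below.

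The authors' deposited table, headed as replicate 1, held 7018 probes, beside 41000 on the array. Of the 46 DNAJ probes it held 13, for 11 genes. Of these 13, 10 were higher and 3 lower with farnesol, and the same split over the whole table was not counted. In the authors' deposited table DNAJB1 had a ratio of 7.85, DNAJB9 of 3.36, DNAJB4 of 2.07 and 1.98 on its probes and DNAJB12 of 1.70 and 1.64. The authors' deposited table gave ratios below 1 for DNAJA3 (0.854), DNAJC5 (0.428) and the variant 1 probe of DNAJB6 (0.416). Its log2 ratios followed the scanner software's log ratios of replicate 1 at r = 0.9999 and those of replicate 2 at 0.832 across probes, and its heading gives the direction as farnesol over vehicle. The authors' deposited table also named DNAJB14 and DNAJA5, which the array lists under other names and which are not among the 27 genes. DNAJB14, an ER membrane relative of DNAJB12, had 0.62 in replicate 1 and -0.16 in replicate 2, and DNAJA5 had -0.29 and -0.44.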

How the data were processed

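Per the file headers, Agilent Feature Extraction 8.1.1.1 read the arrays. Intensity values were deposited uncorrected, as mean spot and median local background brightness per channel. The log10 ratio, also deposited, rests on the software's own background-subtracted and dye-normalized signals, again per the file headers. A table by the authors, deposited in 2 identical copies whose headers name no program, holds a linear ratio (farnesol over vehicle) with its p-value for each probe.

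In R 4.3.3 with limma 3.58.1, background was corrected by normexp (offset 50, which shrinks dim ratios) and log2 ratios were loess-normalized array by array, giving weight 0 to control and outlying spots, which were then dropped. Ratios of the arrays that had farnesol in Cy3 were turned in sign, and dye-swapped arrays were averaged, so n = 2. Intensities per RNA were made comparable by Aquantile scaling. The filter kept probes that, for farnesol or for vehicle, were flagged well above background on 1 or more arrays in both replicates, and the brightest probe stood for a gene. limma's moderated test against 0 was two-sided, with 1 residual and 1.81 prior degrees of freedom, and was tested on simulated data. The number of arrays limits the precision. Ratios were formed within each experiment, where the labels pair farnesol with its matched vehicle.

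Values were given in full for members at least 1.5-fold one way in both replicates, the ER members and cytosolic members known to be induced by stress, and members with probes 1 or more apart (log2). The members, lists and compartments were chosen with earlier results of these data known. No sequence is printed. Gene names follow the array design. Alternatives were other background corrections, normalizations, filters, probe choices, repeat and pairing models, single dyes and single replicates.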

Additional observations from a re-analysis of the deposited data

How the results depend on the processing

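Counts past limma's adjusted threshold moved with the settings. Features past it numbered 3, and 2894 with the 4 arrays as technical repeats in a random block, 65 with a normexp offset of 0, 60 with the scanner software's processed signals, 25 with median centring, 15 without the replicate block (channels fitted unpaired), 15 with farnesol in Cy3 alone and 5 with farnesol in Cy5 alone. DNAJ genes past it numbered 0, and 6 in the random block (DNAJB1, DNAJB4, DNAJB12, DNAJC8, DNAJA3 and DNAJC5) and 1, DNAJB1, with an offset of 0, with processed signals and with median centring (limma adjusted p = 0.0152, 0.0192 and 0.0204). The random block treats dye-swapped arrays as further samples. Without the replicate block, 0 DNAJ genes passed. Features 2-fold in both replicates numbered 256, against 402 with an offset of 0, 445 with processed signals and 579 to 630 with 1 replicate left out. DNAJ genes among them numbered 1, against 3 and 3, and 2 to 4 with 1 replicate left out.

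The median over DNAJ genes was -0.082 with median centring, 0.099 with an offset of 0, and -0.023 without replicate 1 to 0.054 without replicate 2. The mitochondrial median was -0.17 with farnesol in Cy3 alone, -0.12 in Cy5 alone, -0.030 over every probe, -0.088 over means of probes, -0.29 with median centring and -0.11 with an offset of 0. With median centring the class C median of cytosol and nucleus was -0.40 and that of vesicles -0.16, which was -0.061 with an offset of 0 and -0.12 with processed signals. ER features higher in replicate 1 numbered 7, 11 when every probe counted, and 6 with an offset of 0, with processed signals and with Cy5 alone. Among single DNAJ genes, signs turned in those near 0: with median centring DNAJC4 had -0.034, DNAJC10 -0.13, DNAJC13 -0.16, DNAJB11 -0.20, DNAJC1 -0.13 and DNAJC6 0.081, with means of probes DNAJC10 had -0.13, with Cy5 alone DNAJB11 had -0.016, and with Cy3 alone DNAJC1 had -0.053. The causes were not tested. Over 8 settings DNAJB1 ranged from 2.75 to 3.12, DNAJC5 from -1.32 to -0.76, DNAJB6 from 0.22 to 0.52, DNAJC3 from 0.14 to 0.40, DNAJB2 from 0.10 to 0.32 and DNAJB8 from 0.072 to 0.24.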
